A study of Homo sapiens with 6 samples.

Results

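The genes described here are 49 regulators of mitosis, chosen by name: the kinase CDK1 and its cyclins, the enzymes that switch it on and off, partners of the anaphase-promoting complex, condensins, spindle proteins and cytokinesis proteins. They were 49 of the 18336 distinct gene names in the deposited tables. Each of them had a single row in all 6 tables, and all 49 passed the filter on low values, so none had to be left out. RNA sequencing had been done on HUVECs, endothelial cells cultured from the lining of the vein in human umbilical cords. In 3 libraries the cells had been transfected with 8OH-G miR-483, and in 3 libraries with miR-483, in each case with total RNA taken on day 2. 8OH-G is the usual abbreviation of guanine oxidised to its 8-hydroxy form, and miR-483 is a microRNA encoded within the IGF2 gene. The labels name neither the arm of the microRNA nor the guanine that was oxidised, and the scramble control they mention was not analysed here. All groups therefore carried a transfected microRNA, and a difference can come from either form. Nothing in the labels says that the 3 libraries of a group were separate cultures, so a p-value here sets a difference against library-to-library spread alone, which may be technical.

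A cell enters mitosis when CDK1, bound to a cyclin, escapes the inhibitory phosphates that WEE1 and PKMYT1 place on it and that CDC25 phosphatases remove. Condensins and topoisomerase II then fold the chromosomes, the spindle aligns them, and the anaphase-promoting complex (APC/C), a ubiquitin ligase, destroys securin and the cyclins so that chromatids part and the cell divides. Most of these genes are transcribed in the G2 and M phases and are nearly silent in resting cells such as quiescent endothelium, under the control of the MuvB complexes with MYBL2 and FOXM1.

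Values are FPKM, read fragments per length of gene and per size of library. That unit was inferred from column totals of 1396537 to 1440422 with miR-483 and 1598260 to 1687283 with 8OH-G miR-483. Mitochondrial genes, with names starting in MT-, held 71.3% to 76.6% of each total. Without them the totals were 343183 to 400189 with miR-483 and 395006 to 418883 with 8OH-G miR-483. With read depth unknown, counting intervals could not be had. All 9 listed markers of endothelium, among them PECAM1, CDH5 and VWF, were present and summed to 939 to 1137 FPKM with 8OH-G miR-483 and 1718 to 1779 FPKM with miR-483. Of these 9 markers 6 fell and 3 did not pass the test, beside 20.5% of all tested genes called lower. This sum thus moved with the mitotic genes, in the opposite direction. Its part in the results below was not tested. Of 7 leukocyte markers, values were held for LYZ and CD68, which both fell and summed to 6.49 to 7.79 FPKM with 8OH-G miR-483 and 14.2 to 17.7 FPKM with miR-483. LYZ had 0.147, 0 and 0.179 FPKM with 8OH-G miR-483 and 3.66, 4.32 and 4.10 FPKM with miR-483. It passed the filter on low values only through the miR-483 libraries. The 5 epithelial and 5 erythroid markers looked up had no row among the values used here, so their levels could not be analysed. Of 8 mural and fibroblast markers, 6 had rows. Their sum of 826 to 1019 FPKM with 8OH-G miR-483 and 620 to 842 FPKM with miR-483 came almost wholly from RGS5, at 833, 821 and 1015 FPKM with 8OH-G miR-483 and 682, 837 and 615 FPKM with miR-483, while DCN, LUM and COL1A2 stayed under 1 FPKM and LUM was listed at 0 in 1 library given miR-483. PROX1 and LYVE1, held of 3 markers of lymphatic endothelium, summed to 14.7 to 18.4 FPKM with 8OH-G miR-483 and 26.4 to 28.4 FPKM with miR-483. In bulk libraries a difference in the number of cells of a type and one in the RNA per cell cannot be told apart.

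Of the 49 mitotic genes, 47 were higher with 8OH-G miR-483, 1 was lower (CDC25B) and 1 did not pass (FZR1), by limma at an adjusted p under 0.05. CDC25C, among the 47, passed the filter on low values only through the libraries given 8OH-G miR-483. Over all 12729 tested genes, 34.9% were called higher and 20.5% lower. The median log2 fold change of the 49 genes was 1.78, with an interquartile range of 1.4 to 2.06, beside a median of 0.09 over all tested genes. Each log2 fold change subtracts the mean log2(FPKM + 1) with miR-483 from that with 8OH-G miR-483, so that changes of genes at low FPKM come out too small. A rise of at least 1 log2 was called for 42 of the 49 genes, against 5.33% of all tested genes. The values of the 2 groups did not overlap in 48 of the 49 genes, against 63.3% of all tested genes. After median-ratio scaling the higher genes made up 49.9% of all calls, against 63.0% as deposited, and the median of the 49 genes was 1.69 with 47 still higher.

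The summed level of the 49 genes was 1112, 1165 and 1376 FPKM with 8OH-G miR-483 and 349, 341 and 369 FPKM with miR-483. Replicate 3 of 8OH-G miR-483 was therefore the highest library. It held the highest value of its group in 47 of the 49 genes, beside 35.7% of all tested genes, with UBE2S highest in replicate 2 and FZR1 in replicate 1. Without replicate 3 of 8OH-G miR-483, the counts were again 47 higher and 1 lower and the median log2 fold change was 1.73.

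**Figure D1:**
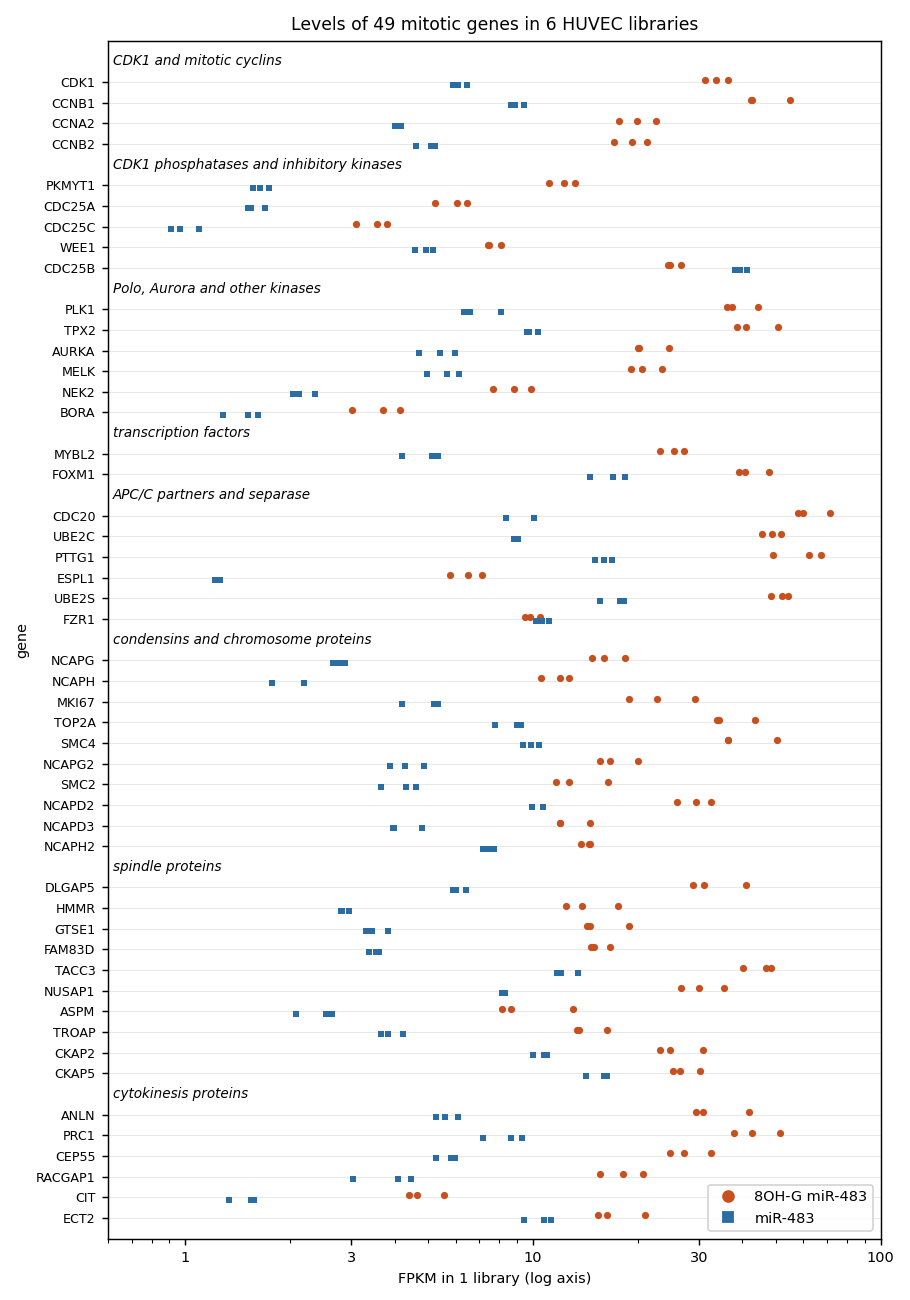
FPKM of each of the 49 genes in each library on a log axis, grouped by role, with circles for the 3 libraries given 8OH-G miR-483 and squares for the 3 given miR-483. In 47 genes the circles lie to the right of all squares, in CDC25B they lie to the left, and in FZR1 they overlap.

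Promoter sequences are shown because these genes moved together and many are known targets of a promoter element, the cell cycle homology region with the core TTTGAA or TTCGAA, often with CCAAT boxes upstream. RefSeq windows (GRCh38.p14) of 250 bases before to 50 bases after each annotated gene start were matched by symbol for 39 of the 49 genes, in 52 windows, since a gene can have several starts. On either strand, TTTGAA was present in 27 of the 39 genes (69.2%), against 1208 of 8839 tested genes with a window (13.7%). CCAAT was present in 29 of them (74.4%), against 43.7% of tested genes, and TTCGAA in 2 of them (5.13%), against 2.35%. Per window of the whole table, the shares were 15.2% for TTTGAA, 34.6% for CCAAT and 1.45% for TTCGAA. The 300-base windows of 1 gene can overlap, TTTGAA and CCAAT matches can overlap by a few bases, and a match is no proof of use. Matches of TTTGAA on the sense strand gathered just before the start: 9 of the 39 genes had one beginning 15 to 40 bases before it, against 0.81% of tested genes with a window, a range picked after the positions were seen.

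The 100 bases that end just before the annotated start follow for 8 of those 9 genes (CDC25C has several starts), for CDC20, whose match lies farther upstream, and for CCNB1 and FZR1, which have none in this stretch. FZR1 has 2 annotated starts, of which the upstream one is shown. Capitals mark TTTGAA and CCAAT on either strand (TTCAAA and ATTGG where they lie on the other one), read 5′ to 3′ along the gene, and matches touch or overlap in MKI67, HMMR and ANLN.
CCNB2: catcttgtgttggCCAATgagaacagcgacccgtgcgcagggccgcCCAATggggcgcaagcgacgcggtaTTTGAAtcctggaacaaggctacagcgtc
PLK1: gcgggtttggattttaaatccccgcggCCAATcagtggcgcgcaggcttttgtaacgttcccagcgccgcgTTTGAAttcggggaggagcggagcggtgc
ESPL1: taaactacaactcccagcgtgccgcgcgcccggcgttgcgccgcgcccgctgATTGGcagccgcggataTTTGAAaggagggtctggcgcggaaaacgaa
NCAPG: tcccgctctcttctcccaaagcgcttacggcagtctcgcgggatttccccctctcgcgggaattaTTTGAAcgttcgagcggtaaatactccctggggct
MKI67: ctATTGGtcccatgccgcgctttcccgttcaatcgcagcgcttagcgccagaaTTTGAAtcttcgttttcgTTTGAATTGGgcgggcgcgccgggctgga
HMMR: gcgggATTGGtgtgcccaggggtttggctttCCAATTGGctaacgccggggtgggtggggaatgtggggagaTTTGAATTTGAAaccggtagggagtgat
PRC1: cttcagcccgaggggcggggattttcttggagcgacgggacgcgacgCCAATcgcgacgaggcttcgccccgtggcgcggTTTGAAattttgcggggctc
ANLN: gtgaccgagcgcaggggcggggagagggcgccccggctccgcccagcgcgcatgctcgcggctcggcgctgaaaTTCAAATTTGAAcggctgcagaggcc
CDC20: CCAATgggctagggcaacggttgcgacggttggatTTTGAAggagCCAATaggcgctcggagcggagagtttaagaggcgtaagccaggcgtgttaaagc
CCNB1: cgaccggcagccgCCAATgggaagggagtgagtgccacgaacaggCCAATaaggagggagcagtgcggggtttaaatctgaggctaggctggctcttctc
FZR1: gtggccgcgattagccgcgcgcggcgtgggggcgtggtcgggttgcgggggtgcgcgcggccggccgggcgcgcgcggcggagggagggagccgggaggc

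On GRCh38.p14 these stretches lie at chr15:59105046-59105145 (+) for CCNB2, chr16:23678789-23678888 (+) for PLK1, chr12:53268199-53268298 (+) for ESPL1, chr4:17810879-17810978 (+) for NCAPG, chr10:128126424-128126523 (-) for MKI67 and chr5:163460532-163460631 (+) for HMMR. The others are at chr15:90994536-90994635 (-) for PRC1, chr7:36389762-36389861 (+) for ANLN, chr1:43358881-43358980 (+) for CDC20, chr5:69167050-69167149 (+) for CCNB1 and chr19:3506211-3506310 (+) for FZR1. In CCNB2 the TTTGAA begins 29 bases before the start, with CCAAT boxes beginning 54 and 87 bases before it. PRC1 has a single CCAAT box 33 bases upstream of its TTTGAA, and MKI67 and HMMR carry 2 copies of TTTGAA each. CCNB1 shows 2 CCAAT boxes and no TTTGAA, and the FZR1 stretch shows neither. The window of that FZR1 start, 1 of 2, does hold a TTTGAA farther out, 226 bases before the start, and 1 of the 4 windows of CDC25B holds TTCGAA and CCAAT, so both genes that did not rise carry such letters too. Among the 49 genes, the median log2 fold change was 1.78 for the 27 with TTTGAA, 1.76 for the 12 with a window but no TTTGAA, and 1.85 for the 10 not matched (AURKA, FAM83D, FOXM1, NCAPH2, PKMYT1, RACGAP1, TPX2, TROAP, UBE2C and WEE1). The 49 genes lie on 18 chromosomes, with at most 6 on the same one.

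**Figure D2:**
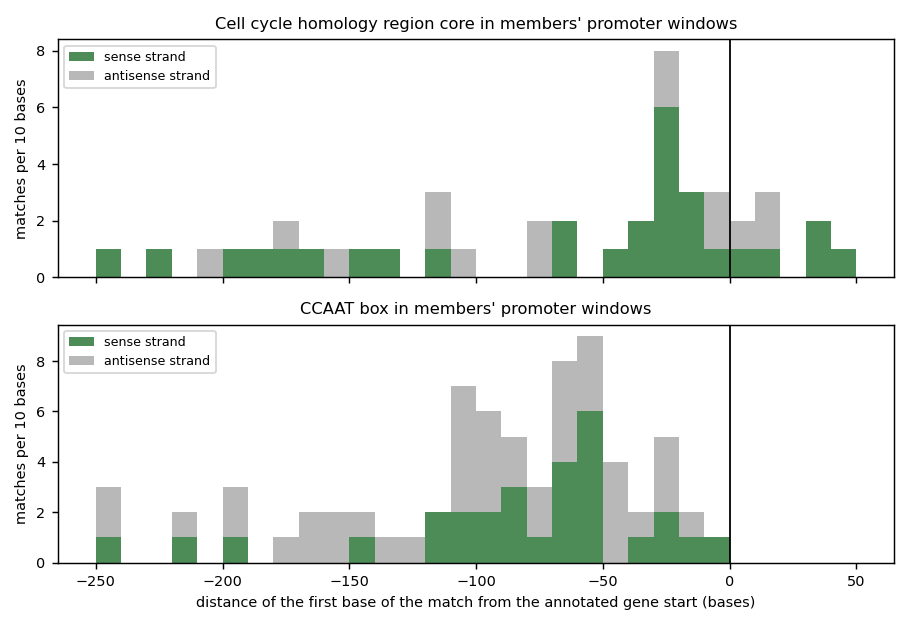
Positions of TTTGAA (upper panel) and CCAAT (lower panel) in the 52 promoter windows of 39 of the genes, as the distance of the first base of a match from the annotated start, in bins of 10 bases, with sense-strand matches in green and antisense ones in grey. TTTGAA on the sense strand peaks just before the start and CCAAT farther upstream, and a site within 2 windows of a gene is drawn for each of them.

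CDK1 and the 3 mitotic cyclin genes all rose, by a median of 2.15 log2. CDK1, the kinase that drives entry into mitosis, had 31.2, 33.7 and 36.3 FPKM with 8OH-G miR-483 and 5.90, 6.09 and 6.46 FPKM with miR-483. Its 3 values with 8OH-G miR-483 lay above all 3 with miR-483, a 5.49-fold higher mean (limma, log2 fold change 2.28, SE 0.076, adjusted p = 5.08e-07). CCNB1, the cyclin B that accumulates in G2 and is destroyed at anaphase, was the most abundant of the 4 with 8OH-G miR-483, at 42.3, 42.8 and 55 FPKM with 8OH-G miR-483 and 8.66, 8.87 and 9.46 FPKM with miR-483. Replicate 3 was the highest and the groups stood well apart (limma, log2 fold change 2.25, SE 0.104, adjusted p = 1.53e-06). CCNB2, its Golgi-associated relative, had 17.1, 19.2 and 21.2 FPKM with 8OH-G miR-483 and 4.62, 5.21 and 5.10 FPKM with miR-483. Its groups also did not overlap, and its log2 fold change of 1.75 was the smallest of the 4. CCNA2, the cyclin of S phase and early mitosis, had a 4.94-fold higher mean, at 20.1 ± 2.42 FPKM with 8OH-G miR-483 and 4.07 ± 0.0855 FPKM with miR-483 (mean ± SD, n = 3 libraries per group). The ratio of CCNB1 to CDK1 in FPKM was 1.36, 1.27 and 1.51 with 8OH-G miR-483 and 1.47, 1.46 and 1.46 with miR-483, with overlapping groups (two-sided exact permutation test of the log2 ratio, p = 0.4).

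The enzymes that set the phosphate on CDK1 did not move as a block. Of 5 genes 4 rose and CDC25B fell. CDC25B, the phosphatase held to start the activation of CDK1 in late G2, had 24.4, 24.8 and 26.6 FPKM with 8OH-G miR-483 and 38.2, 39.3 and 41.2 FPKM with miR-483. It was the only 1 of the 49 genes that was lower with 8OH-G miR-483 in every library (limma, log2 fold change -0.63, SE 0.066, adjusted p = 7.65e-05), a 1.57-fold lower mean. CDC25A, which acts at the G1 to S transition and again in mitosis, had 6.05, 5.23 and 6.47 FPKM with 8OH-G miR-483 and 1.54, 1.52 and 1.69 FPKM with miR-483, and its groups did not overlap (limma, log2 fold change 1.42, SE 0.089, adjusted p = 5.46e-06). CDC25C, which joins the feedback loop at mitotic entry, was the least abundant of the 49 genes with miR-483, at 3.11, 3.57 and 3.81 FPKM with 8OH-G miR-483 and 0.911, 0.964 and 1.10 FPKM with miR-483. Its lowest value with 8OH-G miR-483 still exceeded the highest with miR-483 (limma, log2 fold change 1.17, SE 0.089, adjusted p = 1.39e-05). CDC25C passed the filter on low values only through the libraries given 8OH-G miR-483, so its rise and its ratio below are uncertain. Relative to CDC25B within a library, CDC25A stood at 0.248, 0.211 and 0.243 with 8OH-G miR-483 and 0.0404, 0.0386 and 0.0411 with miR-483, and CDC25C at 0.127, 0.144 and 0.143 with 8OH-G miR-483 and 0.0239, 0.0245 and 0.0266 with miR-483. PKMYT1, the membrane-bound inhibitory kinase, had 11.2, 12.3 and 13.2 FPKM with 8OH-G miR-483 and 1.64, 1.57 and 1.74 FPKM with miR-483. That 7.40-fold higher mean was the largest fold of the 49 genes in mean FPKM (limma, log2 fold change 2.31, SE 0.080, adjusted p = 5.8e-07). WEE1, the nuclear inhibitory kinase, had 7.47, 7.42 and 8.09 FPKM with 8OH-G miR-483 and 5.16, 4.91 and 4.58 FPKM with miR-483. The groups were close but did not overlap, a 1.57-fold higher mean (limma, log2 fold change 0.56, SE 0.073, adjusted p = 0.000263). The ratio of PKMYT1 to WEE1 was 1.49, 1.65 and 1.63 with 8OH-G miR-483 and 0.317, 0.320 and 0.380 with miR-483, so WEE1 had the higher level of the pair with miR-483 and PKMYT1 with 8OH-G miR-483. PKMYT1 shares exon stretches with PAQR4 and KREMEN2 on the other strand, and CDC25C with FAM53C. The sources used here do not say whether reads were counted by strand, so these levels are uncertain to that extent.

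All 6 genes of the group of Polo, Aurora and other kinases, with the activators BORA and TPX2, rose. PLK1, the Polo kinase of centrosomes, kinetochores and cytokinesis, had 36.2, 37.3 and 44.3 FPKM with 8OH-G miR-483 and 6.33, 6.59 and 8.08 FPKM with miR-483. No value of one group reached the other (limma, log2 fold change 2.33, SE 0.107, adjusted p = 1.53e-06), and this was the largest log2 fold change of the 6. BORA, the cofactor through which Aurora A activates PLK1, had 3.01, 3.71 and 4.15 FPKM with 8OH-G miR-483 and 1.29, 1.51 and 1.62 FPKM with miR-483. Its groups stood apart by a smaller margin (limma, log2 fold change 0.90, SE 0.109, adjusted p = 0.000174), the smallest of the 6, and it shares exon sequence with DIS3 on the other strand. The ratio of PLK1 to BORA was 12, 10.1 and 10.7 with 8OH-G miR-483 and 4.92, 4.36 and 5.0 with miR-483. TPX2, which activates Aurora A on spindle microtubules, had the highest level of the 6, at 38.6, 40.9 and 50.8 FPKM with 8OH-G miR-483 and 9.72, 9.61 and 10.3 FPKM with miR-483. Replicate 3 with 8OH-G miR-483 was again the highest library (limma, log2 fold change 2.02, SE 0.102, adjusted p = 2.09e-06). AURKA itself averaged 21.6 ± 2.62 FPKM with 8OH-G miR-483 and 5.36 ± 0.624 FPKM with miR-483 (SD, n = 3 each). The ratio of TPX2 to AURKA was 1.91, 2.04 and 2.06 with 8OH-G miR-483 and 1.79, 2.04 and 1.73 with miR-483, with overlapping groups (two-sided exact permutation test, p = 0.3). NEK2, a kinase of centrosome separation, and MELK, a kinase of proliferating cells, were 4.04-fold and 3.78-fold higher in mean FPKM.

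Both transcription factors rose. FOXM1, which drives G2 and M phase genes, had 39.1, 40.6 and 47.9 FPKM with 8OH-G miR-483 and 17.0, 14.5 and 18.4 FPKM with miR-483. It was the more abundant of the pair in every library and its groups did not overlap (limma, log2 fold change 1.30, SE 0.105, adjusted p = 1.9e-05). MYBL2, which joins MuvB before FOXM1 does, had 23.3, 25.4 and 27.3 FPKM with 8OH-G miR-483 and 4.20, 5.35 and 5.12 FPKM with miR-483. That was a 5.17-fold higher mean, beside 2.55-fold for FOXM1 (limma, log2 fold change 2.16, SE 0.096, adjusted p = 1.31e-06).

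Among the APC/C partners and separase, 5 of 6 rose and FZR1 did not pass. CDC20, the activator that brings substrates to the APC/C in mitosis, had 58.0, 60.0 and 71.8 FPKM with 8OH-G miR-483 and 8.34, 10.1 and 10.1 FPKM with miR-483. Its mean level with 8OH-G miR-483 was the highest of the 49 genes, its groups did not overlap and its log2 fold change was the largest (limma, log2 fold change 2.61, SE 0.103, adjusted p = 9.22e-07). FZR1 (also CDH1), the activator that takes over in late mitosis and G1, had 10.5, 9.84 and 9.50 FPKM with 8OH-G miR-483 and 10.6, 11.1 and 10.2 FPKM with miR-483. Its groups overlapped and the test was not passed (limma, log2 fold change -0.09, SE 0.068, adjusted p = 0.274). With the values rescaled by median ratios or by quantile normalization, FZR1 was lower, with adjusted p = 0.0394 and 0.0227, in a range of 0.0227 to 1 over 16 alternatives. The ratio of CDC20 to FZR1 was 5.55, 6.10 and 7.55 with 8OH-G miR-483 and 0.784, 0.907 and 0.985 with miR-483. CDC20 thus had the higher level of the pair in all 3 libraries given 8OH-G miR-483, and FZR1 in all 3 given miR-483. UBE2C, the ubiquitin-conjugating enzyme that starts chains for the APC/C, and UBE2S, which lengthens them, were 5.44-fold and 3.00-fold higher in mean FPKM. UBE2S had 52.1, 54.2 and 48.5 FPKM with 8OH-G miR-483 and 15.5, 17.8 and 18.3 FPKM with miR-483. This was the smallest rise among the 5 that passed, and replicate 3 with 8OH-G miR-483 was here the lowest of its group (limma, log2 fold change 1.53, SE 0.080, adjusted p = 2.5e-06). PTTG1, the securin that holds separase in check, had the highest mean of the 6 over all libraries, at 49.2, 62.4 and 67.5 FPKM with 8OH-G miR-483 and 15.1, 16.0 and 16.9 FPKM with miR-483. Replicate 1 with 8OH-G miR-483 was the lowest of its group and still well above miR-483 (limma, log2 fold change 1.82, SE 0.113, adjusted p = 5.13e-06). ESPL1, the separase that cuts cohesin, had 6.48 ± 0.689 FPKM with 8OH-G miR-483 and 1.24 ± 0.0193 FPKM with miR-483 (SD, n = 3 each). PTTG1 and UBE2S have intronless copies elsewhere in the genome, so their levels are uncertain where reads could be shared.

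The ratios of partner genes named so far, with those of RACGAP1 to ECT2 and of condensin I to condensin II below, make 9 ratios. In 7 of them the groups did not overlap, with a two-sided exact permutation p = 0.1 (adjusted over 9 ratios, p = 0.129). That is the smallest p this permutation test can give with 3 libraries against 3, so it could call none of the ratios.

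**Figure D3:**
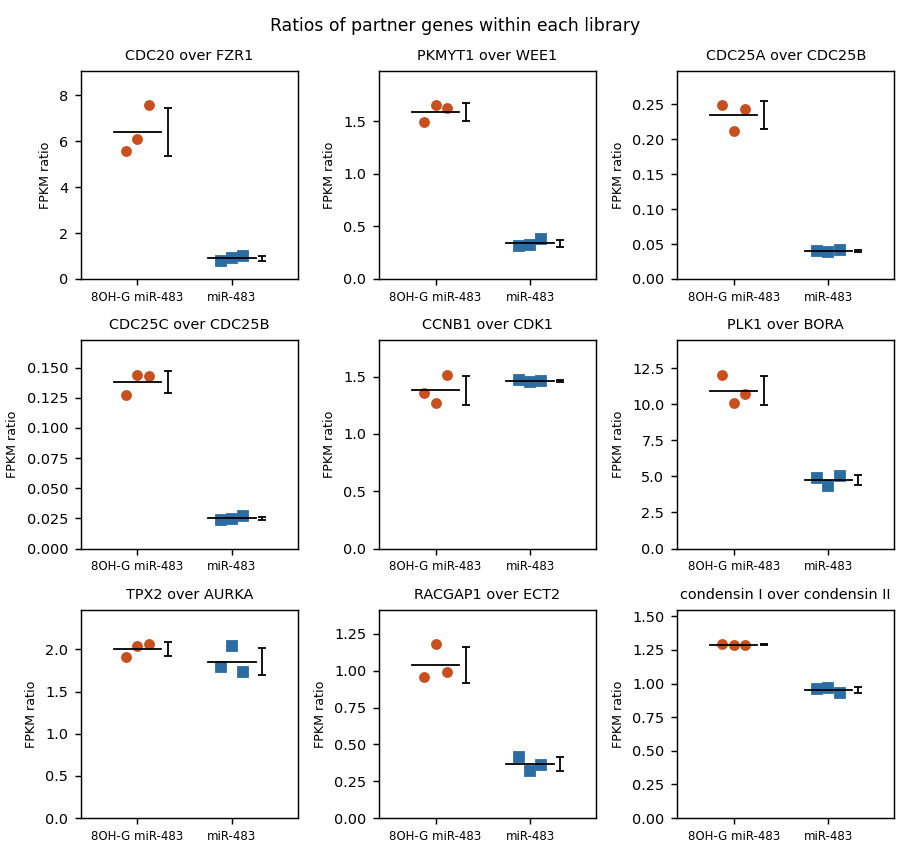
Ratio of FPKM of 9 pairs of partner genes in each library, with 8OH-G miR-483 on the left and miR-483 on the right of each panel, a line at the mean and a bar of 1 SD. CDC20 over FZR1 averages 6.40 with 8OH-G miR-483 and 0.892 with miR-483, whereas CCNB1 over CDK1 and TPX2 over AURKA overlap between the groups.

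All 10 genes of the condensins and other chromosome proteins rose, by a median of 1.86 log2. Condensin I and condensin II share the ATPase pair SMC2 and SMC4 and differ in their other subunits: condensin II acts in the nucleus from prophase, and condensin I reaches chromosomes after the nuclear envelope breaks down. The condensin I genes had log2 fold changes of 2.21 (NCAPG), 2.06 (NCAPH) and 1.4 (NCAPD2), and the condensin II genes 1.78 (NCAPG2), 1.4 (NCAPD3) and 0.85 (NCAPH2). NCAPG, a HEAT-repeat subunit of condensin I, had 14.8, 16.1 and 18.4 FPKM with 8OH-G miR-483 and 2.87, 2.66 and 2.76 FPKM with miR-483. It had the largest log2 fold change of the 10, with no overlap (limma, log2 fold change 2.21, SE 0.086, adjusted p = 9.22e-07), and it shares exon sequence with LCORL on the other strand. NCAPH2, the kleisin of condensin II, had 13.8, 14.5 and 14.6 FPKM with 8OH-G miR-483 and 7.73, 7.48 and 7.20 FPKM with miR-483. The groups did not overlap, but the 1.91-fold higher mean was the smallest of the 10 (limma, log2 fold change 0.85, SE 0.064, adjusted p = 1.35e-05), whereas its condensin I counterpart NCAPH was 5.72-fold higher. Summed over its 3 own subunits, condensin I relative to condensin II was 1.29, 1.28 and 1.29 with 8OH-G miR-483 and 0.957, 0.966 and 0.927 with miR-483. Every library given 8OH-G miR-483 had more condensin I than condensin II mRNA per length, and every library given miR-483 had less. That order rested on NCAPD2, the largest part of the condensin I sum, which shares exon sequence with MRPL51 on the other strand. Without NCAPD2 and its counterpart NCAPD3, a choice made after the data were seen, the ratio was 0.833, 0.932 and 0.896 with 8OH-G miR-483 and 0.387, 0.426 and 0.411 with miR-483, below 1 in every library and again without overlap. SMC4 had the highest mean of the 10 over all libraries, though NCAPD2 had the higher mean with miR-483 (10.4 FPKM, against 9.88 FPKM for SMC4). Its values were 36.5, 36.5 and 50.3 FPKM with 8OH-G miR-483 and 10.4, 9.35 and 9.87 FPKM with miR-483. SMC4 exceeded its partner SMC2 in all 6 libraries (13.6 ± 2.5 FPKM with 8OH-G miR-483 and 4.20 ± 0.490 FPKM with miR-483 for SMC2, SD, n = 3 each). SMC4 shares exon sequence with TRIM59 and IFT80 on the other strand. TOP2A, the topoisomerase II of dividing cells, had 33.9, 34.2 and 43.6 FPKM with 8OH-G miR-483 and 9.23, 7.76 and 8.97 FPKM with miR-483, a 4.30-fold higher mean. MKI67, the Ki-67 protein that coats mitotic chromosomes and marks cycling cells, had 22.7, 18.8 and 29.2 FPKM with 8OH-G miR-483 and 5.32, 4.20 and 5.20 FPKM with miR-483. Its values with 8OH-G miR-483 spread from 18.8 to 29.2 FPKM, all above those with miR-483 (limma, log2 fold change 2.04, SE 0.149, adjusted p = 1.11e-05).

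**Figure D4:**
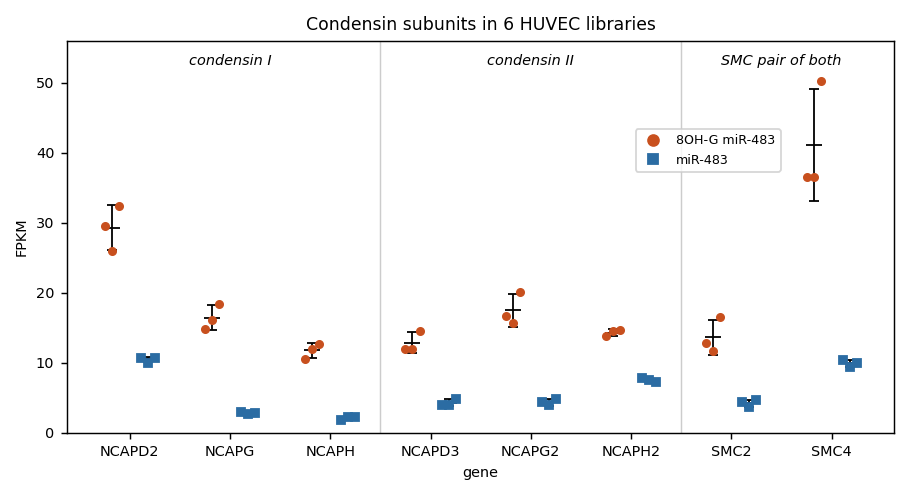
FPKM of the 8 condensin subunits in each library, with circles for 8OH-G miR-483 to the left and squares for miR-483 to the right of each gene, and the mean with 1 SD. NCAPH2 has the smallest gap between groups, at 14.3 FPKM with 8OH-G miR-483 and 7.47 FPKM with miR-483, and SMC4 has the highest mean with 8OH-G miR-483.

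All 10 spindle genes rose. Their median change was 1.78 log2, in a range of 0.78 to 2.27. DLGAP5 (HURP), which stabilises microtubules near the chromosomes, had 28.9, 31.1 and 40.9 FPKM with 8OH-G miR-483 and 5.90, 6.43 and 6.01 FPKM with miR-483. It had the largest log2 fold change of the 10, and its groups lay far apart (limma, log2 fold change 2.27, SE 0.120, adjusted p = 2.57e-06). CKAP5 (ch-TOG), a microtubule polymerase also used outside mitosis, had 26.4, 25.3 and 30.3 FPKM with 8OH-G miR-483 and 16.4, 14.2 and 16.0 FPKM with miR-483. Its level with miR-483 was already the highest of the 10, and its 1.76-fold higher mean was the smallest (limma, log2 fold change 0.78, SE 0.089, adjusted p = 0.000125). TACC3, which works with CKAP5 on spindle fibres, had the highest mean of the 10 over all libraries, at 40.3, 46.8 and 48.5 FPKM with 8OH-G miR-483 and 11.7, 12 and 13.5 FPKM with miR-483. The lowest value with 8OH-G miR-483 was far above the highest with miR-483 (limma, log2 fold change 1.78, SE 0.089, adjusted p = 2.05e-06). CKAP2, a spindle-associated microtubule protein, was 2.48-fold higher in mean FPKM, and NUSAP1, which bundles spindle microtubules, 3.73-fold. HMMR, FAM83D, GTSE1, TROAP and ASPM, a spindle pole protein, had log2 fold changes of 2.01, 1.86, 1.89, 1.65 and 1.65. ASPM, with the widest relative spread of the 10 within 8OH-G miR-483, had 8.63, 8.16 and 13.0 FPKM with 8OH-G miR-483 and 2.65, 2.07 and 2.55 FPKM with miR-483. Replicate 3 with 8OH-G miR-483 stood above its 2 partners, and even the lower of these exceeded every library given miR-483 (limma, log2 fold change 1.65, SE 0.158, adjusted p = 4.53e-05).

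All 6 cytokinesis genes rose. ANLN (anillin), the scaffold of the contractile ring, had 30.9, 29.4 and 41.7 FPKM with 8OH-G miR-483 and 5.57, 5.28 and 6.08 FPKM with miR-483. Its log2 fold change was the largest of the 6 and the groups did not overlap (limma, log2 fold change 2.38, SE 0.126, adjusted p = 2.57e-06). PRC1, the bundler of the central spindle, had the highest mean of the 6 over all libraries, at 37.9, 42.8 and 51.5 FPKM with 8OH-G miR-483 and 8.67, 7.19 and 9.33 FPKM with miR-483. With miR-483 alone, ECT2 was higher. Replicate 3 with 8OH-G miR-483 was the highest library and replicate 2 with miR-483 the lowest (limma, log2 fold change 2.26, SE 0.125, adjusted p = 3.08e-06). ECT2, the exchange factor that activates RHOA at the equator, had 16.3, 15.4 and 21.0 FPKM with 8OH-G miR-483 and 10.8, 9.44 and 11.3 FPKM with miR-483. Here the groups came within a few FPKM of each other without overlap, a 1.68-fold higher mean (limma, log2 fold change 0.68, SE 0.118, adjusted p = 0.00128). RACGAP1, the centralspindlin subunit that recruits ECT2, was 4.70-fold higher, at 18.2 ± 2.62 FPKM with 8OH-G miR-483 and 3.87 ± 0.740 FPKM with miR-483 (SD, n = 3 each). The ratio of RACGAP1 to ECT2 was 0.955, 1.18 and 0.989 with 8OH-G miR-483 and 0.415, 0.322 and 0.363 with miR-483. NUSAP1 shares exon bases with AC087721.2, and PRC1 with AC068831.7, on their own strand, so their levels are uncertain. CCNA2, PLK1, ANLN and RACGAP1 share 144, 42, 78 and 137 exon bases with another gene on the other strand, and their levels are uncertain to that extent. CEP55, which brings the abscission machinery to the midbody, was 4.97-fold higher, and CIT, the citron kinase of the midbody, 3.28-fold higher from the lowest level of the 6.

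Against these genes stand others of the same pathway, from lists picked for this comparison. In the chromosomal passenger complex all 4 genes rose, by a median of 2.07 log2, and AURKB, its kinase, had 30.4, 34.1 and 34.6 FPKM with 8OH-G miR-483 and 6.40, 6.97 and 8.13 FPKM with miR-483 (limma, log2 fold change 2.06, SE 0.094, adjusted p = 1.42e-06). FBXO5 (EMI1), an inhibitor of the APC/C, was 3.97-fold higher (limma, log2 fold change 1.60, SE 0.086, adjusted p = 2.75e-06). The core subunits of the APC/C had smaller changes. Of 14 genes 7 rose and 7 did not pass, beside 34.9% of all tested genes called higher. Their median was 0.30, with 0 rises of 1 log2. After median-ratio scaling 6 rose and 1 (ANAPC16) was lower, and against a fold of 1.2 4 rose. ANAPC7, a scaffold subunit and the one with the smallest adjusted p, had 25.1, 26.4 and 24.6 FPKM with 8OH-G miR-483 and 13.3, 15.7 and 16.2 FPKM with miR-483 (limma, log2 fold change 0.72, SE 0.084, adjusted p = 0.000144). ANAPC5 was at 51.6 ± 1.18 FPKM with 8OH-G miR-483 and 51.8 ± 1.94 FPKM with miR-483, and ANAPC16 at 11.8 ± 1.01 FPKM with 8OH-G miR-483 and 13.5 ± 1.29 FPKM with miR-483 (SD, n = 3 each), the 2 genes of the list with a negative log2 fold change, -0.01 and -0.18.

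Of 9 genes of the Greatwall and PP2A-B55 switch, which times mitotic exit, 4 rose and 5 did not pass, not far from the 34.9% of all tested genes called higher. MASTL, the Greatwall kinase itself, was 2.32-fold higher (limma, log2 fold change 0.95, SE 0.089, adjusted p = 4.05e-05), while its substrate gene ENSA had a log2 fold change of -0.04, the only negative one of the list. In the cohesin list 7 of 11 rose, beside 34.9% of all tested genes called higher. Median-ratio scaling left 6 higher, beside 3463 of all 12729 tested genes, and a fold threshold of 1.2 left 4, beside 2259. CDCA5 (sororin), which protects cohesin until anaphase, had 12, 12.8 and 13.3 FPKM with 8OH-G miR-483 and 2.24, 2.71 and 2.97 FPKM with miR-483 (limma, log2 fold change 1.92, SE 0.090, adjusted p = 1.57e-06). The cohesin genes had a median change of 0.36 log2. SGOL1 (shugoshin, named here after its value was seen), the guard of cohesin at centromeres, was the only other gene of the list to rise by at least 1 log2, 5.51-fold in mean FPKM. With miR-483 it had 0.706, 0.893 and 1.02 FPKM, near the limit of the filter on low values. SGOL1 thus passed that filter only through the libraries given 8OH-G miR-483, so its rise is uncertain. In the MuvB and DREAM list 8 of 11 rose and RBL2 fell, beside 34.9% of all tested genes called higher and 20.5% lower. Median-ratio scaling left 6 higher and 2 lower, LIN37 being the second, beside 3463 higher and 3470 lower over all tested genes. A fold threshold of 1.2 in the test left 5 higher and 0 lower, without the RBL2 call, beside 2259 and 1182 over all tested genes. RBL2 (p130), the pocket protein of the repressive DREAM complex in resting cells, had 13.0, 12.5 and 12.3 FPKM with 8OH-G miR-483 and 16.4, 16.4 and 15.9 FPKM with miR-483. Its groups did not overlap (limma, log2 fold change -0.34, SE 0.061, adjusted p = 0.00165). LIN9, a subunit of MuvB, was 3.11-fold higher (limma, log2 fold change 1.02, SE 0.077, adjusted p = 1.33e-05). Its values were 2.90, 2.86 and 3.20 FPKM with 8OH-G miR-483 and 0.995, 0.959 and 0.929 FPKM with miR-483. LIN9 thus passed the filter on low values only through the libraries given 8OH-G miR-483, so its rise is uncertain. LIN37, another subunit, averaged 5.60 ± 0.371 FPKM with 8OH-G miR-483 and 6.37 ± 0.0655 FPKM with miR-483 (SD, n = 3 each).

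The ESCRT machinery, which CEP55 recruits for abscission, had small changes. Of its 9 genes 0 rose and 2 fell (CHMP1B and PDCD6IP, the ALIX protein), with a median log2 fold change of -0.13. The share that fell is near the 20.5% of all tested genes called lower, and tested against a fold of 1.2 only CHMP1B was lower. Median-ratio scaling left 0 higher and 5 lower of the 9, beside 3463 higher and 3470 lower of all 12729 tested genes. CHMP1B had 17.3, 18.3 and 17.4 FPKM with 8OH-G miR-483 and 23.7, 25.5 and 24.5 FPKM with miR-483 (limma, log2 fold change -0.45, SE 0.063, adjusted p = 0.000379), and VPS4A, the ATPase of the machinery, had a log2 fold change of 0.09 (adjusted p = 0.477). Of 6 CDK inhibitor genes 2 rose and 2 fell, shares near those of all tested genes (34.9% higher, 20.5% lower). Tested against a fold of 1.2, 1 was higher and 0 lower. Median-ratio scaling left 1 higher (CDKN2C) and 3 lower, CDKN1A being the third. CDKN2C (p18) and CDKN2B (p15) were 2.45-fold and 1.37-fold higher, and CDKN2D (p19) and CDKN1C (p57) were 1.56-fold and 2.07-fold lower. CDKN1C, a name on 2 rows, had 0.711, 0.676 and 0.542 FPKM with 8OH-G miR-483 and 1.15, 1.72 and 1.13 FPKM with miR-483. It thus passed the filter on low values only through the miR-483 libraries, so its fall is uncertain. CDKN1A (p21), the most abundant of the 6, averaged 118 ± 4.68 FPKM with 8OH-G miR-483 and 128 ± 3.36 FPKM with miR-483 (SD, n = 3 each).

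**Figure D5:**
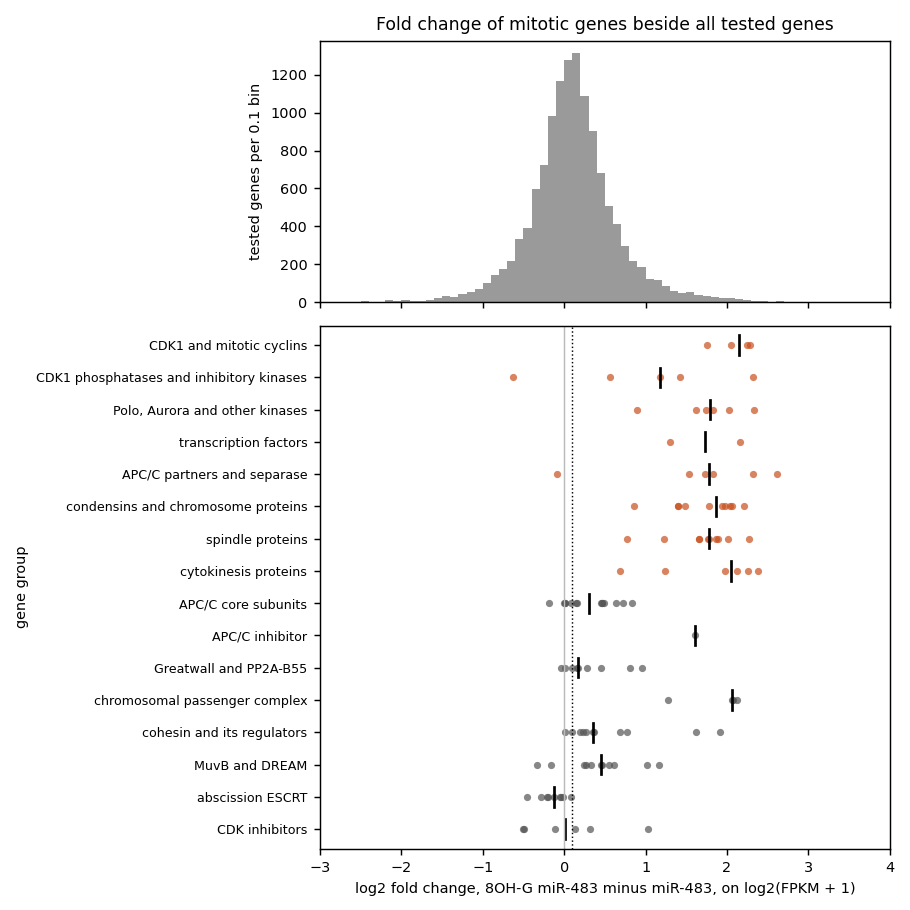
Upper panel, number of tested genes per bin of 0.1 in log2 fold change, 8OH-G miR-483 minus miR-483 (12729 genes, of which those outside -3 to 4 are not drawn). Lower panel, each gene of the 8 role groups (orange) and of the pathway lists (grey), with a black bar at each group's median and a dotted line at the median of all tested genes, 0.09. The role groups have medians of 1.17 to 2.15, and the pathway lists medians of -0.13 (ESCRT) to 2.07 (chromosomal passenger complex), with 0.45 for MuvB and DREAM, 0.36 for cohesin and 0.30 for the APC/C core.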

How the data were processed

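Total RNA of HUVECs was sequenced, and the authors deposited 1 table of normalised values per library. The header does not name the unit. As deposited, the values were read as FPKM because of their magnitudes and column totals. Low values showed no whole-read steps, so a count test was not run. The build hg19 and the tools STAR, HTSeq, cutadapt and DESeq2 appear in the submitters' processing notes, without saying which of them made these values. Strand setting and depth: not given in the sources used here.

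Values were read as log2(FPKM + 1). Genes at 1 FPKM or more in at least 3 libraries (12729) were fitted together with limma 3.58.1 (trend, robust; R 4.3.3), 3 libraries against 3, with Benjamini-Hochberg adjustment over all tested genes and a threshold of 0.05. A gene name on several rows (748) was taken at its highest value in each library. Ratios within a library were compared by two-sided exact permutation tests (scipy 1.17.1). The steps were tested on simulated data. For each role, values in every library are given for the genes with the largest and smallest change and the highest mean, and for each that did not rise. For each pathway list, the gene with the smallest adjusted p and those of opposite sign are named. The 49 genes and all lists were chosen with earlier results of these data known. Promoters come from RefSeq (GRCh38.p14), and exon overlaps from GENCODE 29.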

Additional observations from a re-analysis of the deposited data

How the results depend on the processing

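Under 16 alternatives (other pseudocounts and filters, scalings, a fold threshold, an ordinary fit, the replicate block and each library left out), 47 of the 49 genes were higher in every one. The number lower was 1 except with median-ratio scaling or quantile normalization, where it was 2 because FZR1 passed, at -0.19 and -0.23. These scalings shift the median of all genes by -0.0958 and -0.104 log2. Over all genes they gave 3463 higher and 3470 lower, and 3440 higher and 3559 lower, against 4437 and 2608 as deposited. Testing against a fold of 1.2 gave 2259 higher and 1182 lower, the threshold itself being stricter. Leaving out 1 library gave 3698 to 4104 higher and 2029 to 2491 lower. CDC25B ranged from -0.73 to -0.60, WEE1 from 0.40 to 0.64 and ECT2 from 0.56 to 0.77. The groups share replicate numbers in the labels. Deviations of same-numbered libraries correlated at 0.0171, 0.332 and 0.0118, and the best correlations with another number were 0.0998, -0.101 and 0.22. Replicate 2 thus correlated best with its own number, and replicates 1 and 3 did not. From 3 libraries per group this cannot decide whether same-numbered libraries share an origin. With the replicate block the counts were 47 higher and 1 lower among the 49 genes, and 4802 higher and 2799 lower over all genes. Depth is unknown, so what it limits could not be assessed.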
